A study of Mus musculus and Homo sapiens with 22 samples.

Results

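The genes of aromatic amino acid breakdown were examined for PROX1 occupancy: Tat, Hpd, Hgd, Gstz1, Fah and Tdo2. These 6 genes, taken from 21853 protein-coding genes of the mouse and 19689 of the human annotation, form the main route of tyrosine breakdown and the entry to tryptophan breakdown. The rule uses no measured value, but the genes were picked with earlier results of these data known. Every peak was assigned to a gene when its summit, the position of the strongest signal, lay in the gene body or within 20 kb of it. By this rule 60 of 50159 liver peaks, 5 of 40531 peaks of mouse embryonic fibroblasts (MEFs) and 4 of 14369 Hep3B peaks belonged to the pathway.

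CUT&RUN maps a chromatin protein by directing a nuclease to it with an antibody and sequencing the DNA fragments that are cut free. Untreated livers of wild-type C57BL/6J mice, 2 to 3 months old, were profiled with an antibody to PROX1 (5 samples) or with nonspecific IgG (5 samples), from nuclei of homogenized tissue that the labels call hepatocyte. Wild-type C57BL/6N MEFs carried lentiviral rtTA and tetO-FLAG-mmProx1 and received doxycycline at 2 µg per ml for 2 days before profiling with a FLAG antibody (3 samples) or IgG (3 samples). Hep3B, an established human hepatocellular carcinoma line, was stably transduced with pLIX-Puro-hsPROX1, given the same dose for 2 days and profiled with a FLAG antibody (3 samples) or IgG (3 samples). MEFs and Hep3B therefore reported an overexpressed factor, and liver the endogenous one. Each deposited list pools the antibody samples of 1 group, so no value per sample, depth or spread between replicates could be given and no test between conditions was possible. Tissue, antibody and origin of the factor cannot be told apart between liver and the cultures, nor cell type and species between MEFs and Hep3B.

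Tyrosine is degraded in the cytosol of hepatocytes by a linear chain of enzymes. TAT removes the amino group, HPD converts the resulting keto acid to homogentisate, HGD opens its ring, GSTZ1 isomerizes the product and FAH cleaves it to fumarate and acetoacetate. TDO2 catalyses the first and rate-limiting step of hepatic tryptophan breakdown, which leads to kynurenine. Loss of FAH causes hereditary tyrosinemia and loss of HGD causes alkaptonuria, while Tat and Tdo2 are textbook genes of liver maturation that glucocorticoids induce. PROX1 is a homeodomain transcription factor that hepatocytes express from early liver development onward.

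The DNA under selected summits is shown because these are among the strongest liver summits of 5 genes, together with the single HGD summit of Hep3B. Each line gives 121 bases centred on the summit, 5′ to 3′ on the strand of the gene. Capitals mark matches, on either strand, to 7 short motifs of factors known in liver, which were searched separately and may overlap: AGGTCA (nuclear receptors), ATCGAT (ONECUT factors), TGTTTAC (FOXA factors), TTGCAA (C/EBP factors), AGAACA (glucocorticoid receptor), GTTAAT (HNF1) and CTTGGC (NFI factors). A match is a run of letters and not evidence of binding. For Fah the strongest summit was passed over for the next, since its surroundings include untranslated exon. The first summit of Hgd held 2 AGGTCA matches in opposite orientation, and the strongest of Tdo2 held no match within the bases shown.
Hpd, liver, 13741 bp upstream of the TSS, mm10 chr5:123196408-123196528 (minus strand): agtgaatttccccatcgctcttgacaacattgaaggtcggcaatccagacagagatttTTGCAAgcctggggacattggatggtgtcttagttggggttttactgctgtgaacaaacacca
Hpd, liver, 18430 bp upstream of the TSS, mm10 chr5:123201097-123201217 (minus strand): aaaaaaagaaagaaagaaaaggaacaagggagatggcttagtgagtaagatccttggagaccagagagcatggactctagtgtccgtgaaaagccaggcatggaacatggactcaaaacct
Hgd, liver, 318 bp upstream of the TSS, mm10 chr16:37579775-37579895 (plus strand): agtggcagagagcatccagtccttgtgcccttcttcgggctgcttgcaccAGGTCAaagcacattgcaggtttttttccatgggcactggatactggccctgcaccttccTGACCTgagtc
Hgd, liver, 3368 bp downstream of the TSS, mm10 chr16:37583461-37583581 (plus strand): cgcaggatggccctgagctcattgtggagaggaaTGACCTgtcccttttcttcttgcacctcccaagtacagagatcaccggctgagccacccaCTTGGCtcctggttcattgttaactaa
Gstz1, liver, 7070 bp downstream of the TSS, mm10 chr12:87154728-87154848 (plus strand): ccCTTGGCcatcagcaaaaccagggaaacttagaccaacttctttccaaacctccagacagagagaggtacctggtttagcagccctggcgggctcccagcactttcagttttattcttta
Fah, liver, 1104 bp downstream of the TSS, mm10 chr7:84604778-84604898 (minus strand): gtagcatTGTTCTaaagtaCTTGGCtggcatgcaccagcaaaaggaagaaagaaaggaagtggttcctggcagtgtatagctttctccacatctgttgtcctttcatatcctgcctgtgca
Tdo2, liver, 14365 bp upstream of the TSS, mm10 chr3:81990507-81990627 (minus strand): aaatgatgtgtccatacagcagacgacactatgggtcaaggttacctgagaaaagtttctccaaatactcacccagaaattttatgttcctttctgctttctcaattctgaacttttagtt
Tdo2, liver, 7547 bp upstream of the TSS, mm10 chr3:81983689-81983809 (minus strand): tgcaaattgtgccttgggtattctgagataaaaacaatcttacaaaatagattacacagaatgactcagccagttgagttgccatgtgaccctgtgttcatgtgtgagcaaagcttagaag
Tdo2, liver, 6023 bp upstream of the TSS, mm10 chr3:81982165-81982285 (minus strand): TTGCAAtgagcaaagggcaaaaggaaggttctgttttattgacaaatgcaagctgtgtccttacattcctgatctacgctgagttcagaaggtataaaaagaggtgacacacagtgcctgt
HGD, Hep3B, 3573 bp downstream of the TSS, hg38 chr3:120678606-120678726 (minus strand): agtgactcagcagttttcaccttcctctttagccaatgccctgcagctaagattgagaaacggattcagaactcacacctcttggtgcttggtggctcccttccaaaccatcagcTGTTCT

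In liver, all 6 genes held a summit in the window and all 6 held one within 1 kb of a transcription start site (TSS) of a protein-coding transcript. Of all protein-coding genes, 57.4% met the first criterion and 26.7% the second. In MEFs, 4 of 6 genes held a summit in the window (75.5% of all genes) and 2 of 6 at a TSS (55.4%). In Hep3B, 4 of 6 genes held a summit in the window (62.5% of all genes) and 2 of 6 at a TSS (44.4%). With 6 genes, the MEF and Hep3B counts lay near the shares of all genes or below them. At the 20 kb limit, liver was the list in which every gene was marked. Within 50 kb, all 6 genes were marked in every list.

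The number of summits separated liver further. The 60 liver summits fell in 370.4 kb of sequence, or 16.2 per 100 kb, against 2.91 per 100 kb over the windows of all protein-coding genes, a ratio of 5.58. MEFs had 1.35 summits per 100 kb against 2.33 for all genes. Hep3B had 0.908 against 0.775. The liver list holds more peaks than the others and starts at a higher minimum area under the significance curve, 500 against 200, so numbers were read only against the background of the same list. With the floor of liver applied to every list, MEFs had 2 marked genes (63.3% of all genes) and Hep3B 3 (41.1% of all genes). Within liver the genes were far from alike. Tat had 34.4 summits per 100 kb, Hpd 25.5 and Tdo2 22, which placed them at percentiles 99.9, 99.2 and 98.4 of all mouse genes by density. Hgd had 9.80, Gstz1 8.69 and Fah 4.87, at percentiles 86.7, 84.1 and 72.9.

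**Figure D1:**
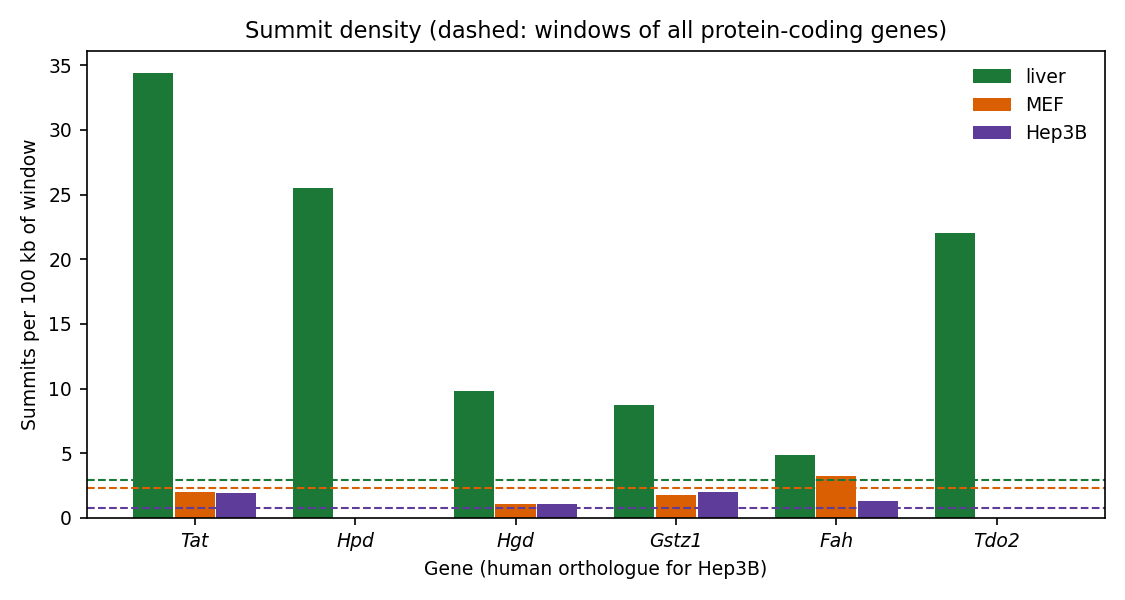
Summits per 100 kb of window (gene body and 20 kb on each side) for each gene, with bars for liver, MEFs and Hep3B; dashed lines give the density over all protein-coding genes in the same list. All 6 liver bars exceed the liver line at 2.91, from 4.87 for Fah to 34.4 for Tat, and Hpd and Tdo2 have no bar in the cultures.

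Strength was expressed as the percentile of the summit −log10 p within its own list, so that 90 means that 90% of the peaks of that list scored no higher. The 60 liver summits ranged in −log10 p from 7.49 to 21.7, with a median percentile of 53.2. Of these, 7 lay in the top decile of the list, 20 in the top 25% and 19 in the bottom 25%, so the genes combined strong and weak peaks and were not marked by strong ones alone. All 7 summits of the top decile belonged to Hpd, Hgd and Tdo2. By position, the 32 summits outside the gene bodies and away from a TSS had a median percentile of 59.8, and 13 of them were in the top 25%. The 11 summits at a TSS had a median of 55.2 (9.94 to 97.5), against 32.1 for all 7253 liver peaks at a TSS and 53.0 for all others. The 17 other summits within the gene bodies had a median of 24.0, and 3 of them were in the top 25%.

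**Figure D2:**
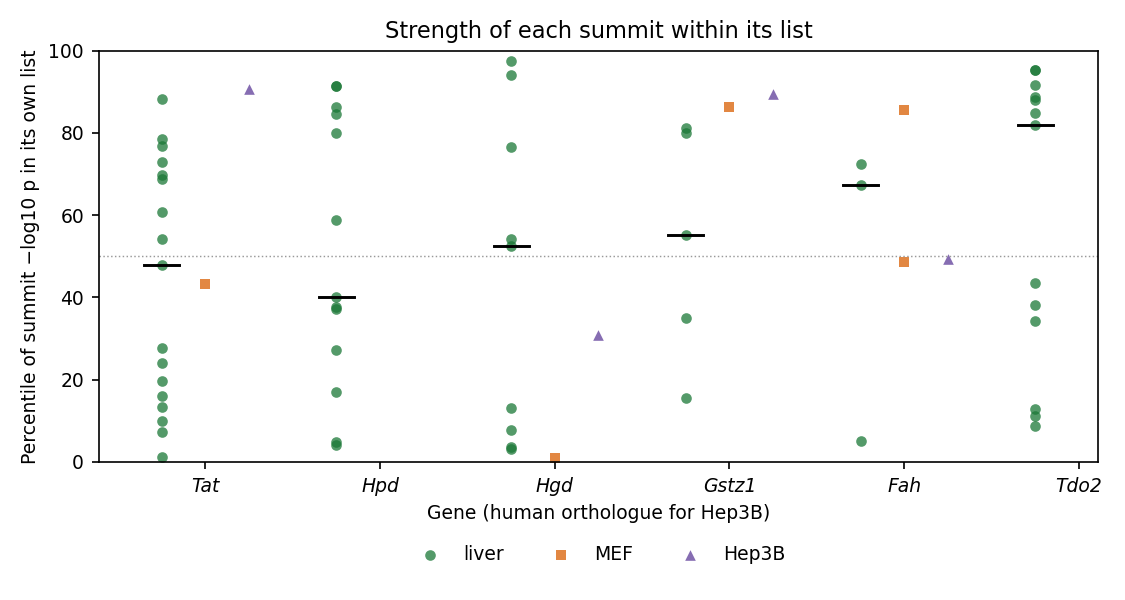
Percentile of the summit −log10 p within its own list (vertical axis) for every summit of each gene, with circles for liver, squares for MEFs, triangles for Hep3B and a black line at the median where a gene has 3 or more summits. Liver summits of every gene spread widely; those of Tdo2 run from 8.70 to 95.3 with a median of 82.0, and those of Tat from 1.26 to 88.3 with a median of 48.0.

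Tat (ENSMUSG00000001670.13, mm10 chromosome 8, 109990437 to 109999803, plus strand) encodes tyrosine aminotransferase, the entry enzyme. It held 17 liver summits, 11 upstream, 3 in the gene body and 3 downstream. The peaks covered 11541 bp, 23.4% of the window, with a median of 1640 bp between neighbouring summits. The summits at the TSS, 188 bp and 9 bp upstream of it, were weak, with −log10 p of 10.3 and 8.88 at percentiles 27.6 and 9.94. The strongest summit lay 17527 bp upstream (−log10 p 17.6, percentile 88.3). Next came summits 10342 bp downstream of the TSS, beyond the gene end (15.6, percentile 78.5), 2653 bp upstream (15.4, percentile 76.9) and 2694 bp downstream in an intron (14.8, percentile 72.9). Tat was thus occupied densely on both sides, and its start site carried weak summits. The cluster was isolated: the next liver summit beyond the 20 kb limit lay 64608 bp from the gene. The summits farthest upstream, at 17527 and 19628 bp, were nearer to the TSS of Marveld3, a tight junction gene, than to that of Tat.

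A single MEF peak fell in the window of Tat, 12710 bp downstream of the TSS and 3344 bp beyond the gene end (−log10 p 5.73, percentile 43.3). It overlapped the weak liver peak there (9.45, percentile 16.0) by 219 bp, and the summits were 12 bp apart. In Hep3B the window of TAT (ENSG00000198650.11, hg38 chromosome 16, 71565660 to 71577092, minus strand) held 1 summit, 640 bp beyond the gene end (8.47, percentile 90.7). That summit lay 69 bp from the TSS of ZNF19, a zinc finger gene, so the rule assigned TAT a peak that sits at the promoter of its neighbour.

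Hpd (ENSMUSG00000029445.13, mm10 chromosome 5, 123171807 to 123182727, minus strand) encodes 4-hydroxyphenylpyruvate dioxygenase. It held 13 liver summits. The promoter summit, 11 bp upstream of the TSS, was strong (15.9, percentile 80.1) and broad, with a peak of 1969 bp. Upstream of it lay 7 more summits, and the strongest of these were 13741 and 18430 bp from the TSS (both 18.6, percentiles 91.5 and 91.4), followed by those at 3356 bp (17.1, percentile 86.2) and 8906 bp (16.8, percentile 84.6). Summits inside the gene were weaker. The intronic ones 1927, 4742 and 5601 bp downstream of the TSS reached 8.17, 8.25 and 11.3, and the one in a coding exon at 10672 bp reached 11.1. Occupancy of Hpd was therefore strongest at the promoter and in the upstream flank. The next liver summit past the limit, 21103 bp from the gene, was stronger than 11 of the 13 inside (17.7, percentile 88.5). All 13 summits also fell within the annotated body of Psmd9, a proteasome assembly gene on the opposite strand, and 1 was nearest to the TSS of Setd1b, a histone methyltransferase gene.

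Hpd and HPD had no summit in the window in either culture. The nearest MEF summit lay 21595 bp from the gene, just beyond the limit, and was among the strongest of its list (10.1, percentile 99.1). The nearest Hep3B summit lay 24856 bp from HPD (ENSG00000158104.11, hg38 chromosome 12, 121839527 to 121863596, minus strand), at the very bottom of its list (4.10, percentile 0.0522).

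Hgd (ENSMUSG00000022821.13, mm10 chromosome 16, 37580153 to 37632020, plus strand) encodes homogentisate 1,2-dioxygenase. It carried the strongest summit of the 6 genes at its promoter, 318 bp upstream of the TSS (21.7, percentile 97.5, rank 1253 in the list). This is the summit with the 2 separate AGGTCA matches shown above. A second strong summit lay 3368 bp downstream of the TSS in an intron (19.6, percentile 94.1) within the widest peak of the 6 genes, 2351 bp. Between them were 3 summits, at 820 bp (9.20), 1519 bp (8.63) and 1975 bp (15.3). The rest of this long gene held only a pair of summits, 26301 and 26982 bp from the TSS (7.98 and 12.6). Farther upstream, summits at 12694 and 14067 bp fell in Rabl3 (12.4 and 8.06). Hgd was thus occupied mainly in a block of a few kb around its start.

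In MEFs the only summit of Hgd lay in a coding exon 48370 bp downstream of the TSS (3.90, percentile 1.06), near the bottom of the list, and was closer to the TSS of Ndufb4, a gene of respiratory complex I. In Hep3B, HGD (ENSG00000113924.12, hg38 chromosome 3, 120628172 to 120682269, minus strand) held 1 summit, in an intron 3573 bp downstream of the main TSS (5.85, percentile 30.8). The mouse liver summit at 3368 bp and the human summit at 3573 bp had similar distances from the start. No alignment between the genomes was made.

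Gstz1 (ENSMUSG00000021033.11, mm10 chromosome 12, 87147165 to 87164723, plus strand) encodes maleylacetoacetate isomerase. It held 5 liver summits, all in the gene body. The one at the main TSS, 77 bp upstream of it, reached 10.9 (percentile 35.1), and the one 673 bp downstream reached 9.42 (percentile 15.6) and was closest to the TSS of Pomt2, a mannosyltransferase gene that starts beside Gstz1. The stronger summits were farther in: 7070 bp from the main TSS (16.1, percentile 81.3), 9694 bp (15.9, percentile 79.9) and 10520 bp (12.7, percentile 55.2). The last 2 were 196 and 630 bp from an annotated alternative start. Gstz1 thus differed from Hgd in that its main promoter carried weak liver peaks.

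The promoter of Gstz1 was occupied in every list. The MEF summit lay 18 bp upstream of the main TSS (7.80, percentile 86.4) and 59 bp from the liver summit, and its peak of 1508 bp spanned the whole liver peak. In Hep3B the summit of GSTZ1 (ENSG00000100577.19, hg38 chromosome 14, 77320996 to 77331597, plus strand) was 18 bp from an annotated TSS (8.35, percentile 89.4).

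Fah (ENSMUSG00000030630.16, mm10 chromosome 7, 84585159 to 84606722, minus strand) encodes fumarylacetoacetase, the last enzyme of the chain. It held 3 liver summits. The strongest was 739 bp upstream of the main TSS and 41 bp from a second annotated start (14.7, percentile 72.4). The others lay in introns 1104 bp (14.0, percentile 67.3) and 2763 bp (8.32, percentile 5.16) downstream. No further liver summit occurred within 33735 bp of the gene.

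In MEFs Fah had 2 summits, 38 bp downstream of the main TSS (7.72, percentile 85.5) and 11327 bp downstream in an intron (5.92, percentile 48.7). The MEF promoter peak overlapped the liver promoter peak by 1473 bp, yet the summits were 777 bp apart, so liver signal peaked at the outer start and MEF signal at the main one. In Hep3B the summit of FAH (ENSG00000103876.14, hg38 chromosome 15, 80152490 to 80186946, plus strand) lay 442 bp upstream of the main TSS and 67 bp from another annotated start (6.44, percentile 49.4).

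Tdo2 (ENSMUSG00000028011.16, mm10 chromosome 3, 81957090 to 81976202, minus strand) encodes tryptophan 2,3-dioxygenase. It held 13 liver summits with the highest median percentile of the 6 genes, 82.0. The promoter summit, 187 bp downstream of the TSS, reached 16.8 (percentile 84.8). Upstream, 8 summits lay between 6023 and 19379 bp from the TSS, and 6 of these exceeded percentile 80. The strongest were those at 7547 and 14365 bp (both 20.1, percentile 95.3) and at 6023 bp (18.7, percentile 91.7), whose sequences are shown above. Within the gene, summits at 1057 and 3737 bp reached only 9.17 and 8.74, and 2 more lay past the gene end in Ctso (9 and 11.6). The upstream block was the main feature of Tdo2, and 7 of its 8 summits fell in the annotated body of Asic5, an ion channel gene. Of the 13 summits, 4 were nearer to the TSS of Asic5 than to that of Tdo2.

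Neither culture had a summit in the window of Tdo2. The nearest MEF summit missed the 20 kb limit by a few bases, at 20004 bp from the gene (7.65, percentile 84.5), and its peak overlapped the outermost liver peak of Tdo2 by 292 bp. The nearest Hep3B summit lay 33073 bp from TDO2 (ENSG00000151790.9, hg38 chromosome 4, 155854738 to 155920406, plus strand), whose annotated body starts 48958 bp upstream of its main TSS.

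**Figure D3:**
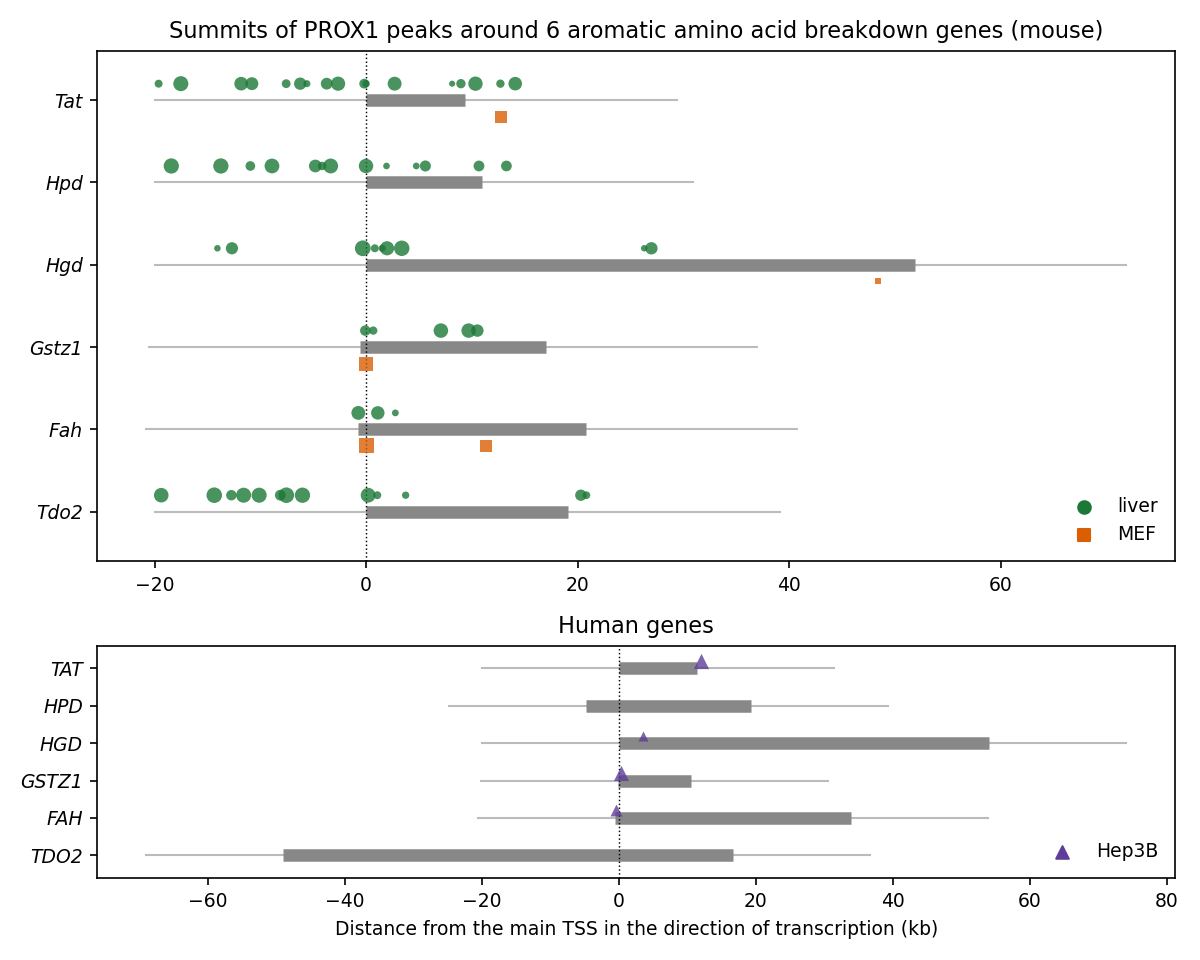
Distance of each summit from the main TSS in kb, in the direction of transcription, for the mouse genes (upper panel, liver circles and MEF squares) and the human genes (lower panel, Hep3B triangles); grey bars are gene bodies, thin lines the 20 kb flanks, and larger symbols have a higher percentile in their list. Liver summits spread over both flanks of Tat and the upstream flanks of Hpd and Tdo2, while those of Gstz1 and Fah stay within the gene.

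Across the pathway, 6 of 60 liver peaks (10.0%) overlapped a MEF peak by at least 1 bp, against 18.9% of all 50159 liver peaks. They were 1 peak of Tat, 2 of Gstz1, 2 of Fah and 1 of Tdo2. The peaks of Hpd and Hgd, which included the strongest summit of the 6 genes, were not shared.

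The genes with and without a promoter peak in the cultures differed in the base composition of their promoters. The ratio of observed to expected CpG dinucleotides within 250 bp of the main TSS was 0.788 for Gstz1 and 0.667 for Fah. It was 0.247 for Tat, 0.270 for Hpd, 0.175 for Hgd and 0.0 for Tdo2. The human promoters were ordered in the same 2 groups, with 0.822 for GSTZ1 and 0.653 for FAH, and 0.127 for TAT, 0.213 for HPD, 0.221 for HGD and 0.0541 for TDO2. In both MEFs and Hep3B, Gstz1 and Fah were the genes with a promoter peak and the other 4 had none. In liver all 6 had one. Over all genes, split at a ratio of 0.4 chosen after the values were seen, promoter peaks occurred at 13.7% of 8317 CpG-poor and 80.9% of 13536 CpG-rich mouse promoters in MEFs. The shares were 7.05% and 56.0% in Hep3B and 12.7% and 35.2% in liver. The members of the pathway thus followed the pattern of all genes in the cultures. In liver the 4 CpG-poor genes were marked at their promoters where 12.7% of such genes were.

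**Figure D4:**
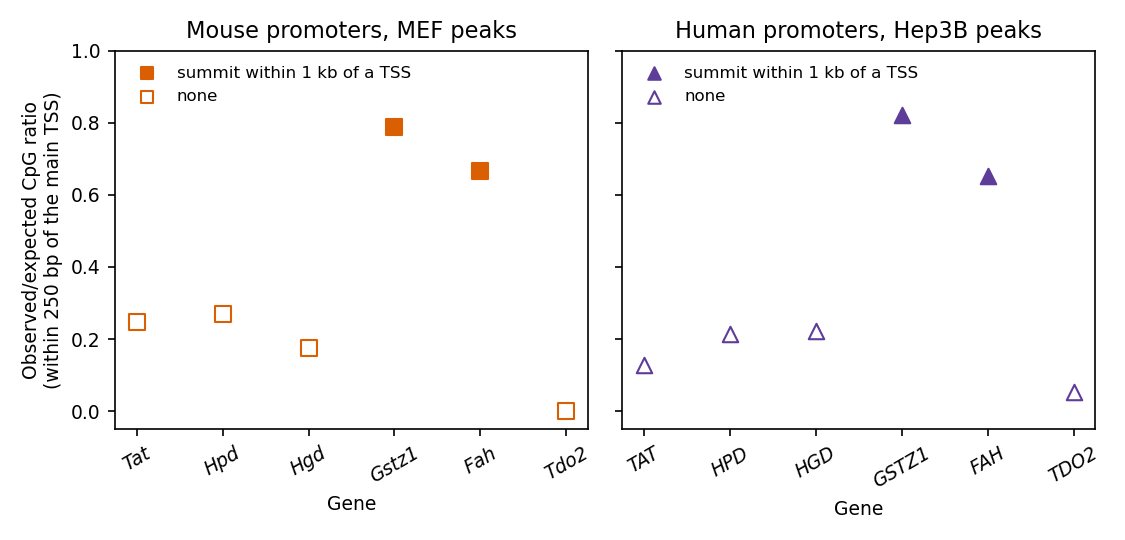
Observed to expected CpG ratio within 250 bp of the main TSS for the mouse (left) and human (right) genes; filled symbols have a MEF or Hep3B summit within 1 kb of a TSS and open symbols have none. The filled symbols, Gstz1 and Fah, lie at 0.653 or above and the open ones at 0.270 or below.

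Sequence under the summits was compared with that under all summits of the same list, in windows of 301 bp. AGAACA occurred at 18 of 60 liver summits (30.0%, against 24.7% of the list), and 9 of these were among the 17 summits of Tat. The motif was at 2 of 13 summits of Tdo2, 2 of 13 of Hpd, 2 of 9 of Hgd, 1 of 5 of Gstz1 and 2 of 3 of Fah. TTGCAA occurred at 9 (15.0% against 9.57%), of which 3 were at Tat and 3 at Tdo2. AGGTCA occurred at 11 (18.3% against 32.0%), of which Hgd held 4 of its 9 and Tdo2 none of its 13. CTTGGC occurred at 13 (21.7% against 27.7%), GTTAAT at 3 (5.00% against 12.2%), TGTTTAC at 2 (3.33% against 8.18%) and ATCGAT at none (2.49% of the list). Most liver motifs were thus no more frequent at these genes than elsewhere in the list. In the mouse promoter sequences of RefSeq (GRCm38; 250 bases before to 50 after the start, 7 entries for the 6 genes), AGGTCA occurred for Hgd and Tdo2 and in 16.3% of all 32851 promoters. CTTGGC occurred for Gstz1 and Tdo2 and in 19.6% of all promoters, and the other 5 motifs occurred for none of the genes.

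The 12-letter palindromic consensus of PROX1 was searched with up to 2 mismatches. It occurred at 8 of 60 liver summits (13.3%), against 6.19% of all liver summits, and at none of the 5 MEF and 4 Hep3B summits (5.00% and 5.02% of those lists). Matches were spread over 5 genes, with 2 at Tat, 1 at Hpd, 2 at Hgd, 1 at Gstz1, 2 at Tdo2 and none at Fah. All 8 carried 2 mismatches. The matches outside Tat are shown on the plus strand of mm10, with fitting letters in capitals and mismatches in lower case. Only the 150 bp to each side of a summit were searched, so closer matches elsewhere at these genes were not looked for. The match of Hgd at 26301 bp was centred 3 bp from its summit, and that of Hpd 13 bp from its summit. These summits were at percentiles 3.23 and 40.2 of the liver list. The remaining summits with a match were at percentiles 7.17 and 76.9 (Tat), 94.1 (Hgd, 3368 bp), 35.1 (Gstz1), and 11.2 and 84.8 (Tdo2). The strongest summit of the 6 genes, 318 bp upstream of Hgd, had no match with up to 2 mismatches. The matches at Gstz1 and at the downstream summit of Tdo2 were 140 and 115 bp away.
Hpd summit 5601 bp downstream of the TSS, mm10 chr5:123177133-123177144: CAgGACtCCTTG
Hgd summit 3368 bp downstream of the TSS, mm10 chr16:37583578-37583589: CtAaGCGTCTTG
Hgd summit 26301 bp downstream of the TSS, mm10 chr16:37606451-37606462: CAAGGCaTCTcA
Gstz1 summit 77 bp upstream of the TSS, mm10 chr12:87147495-87147506: gAAGGCGTCTcG
Tdo2 summit 187 bp downstream of the TSS, mm10 chr3:81976051-81976062: TAAGAatCCTTA
Tdo2 summit 20832 bp downstream of the TSS, mm10 chr3:81955249-81955260: CAAaGCtCCTTA

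For context, 27 further genes of aromatic amino acid metabolism were examined by the same rule. All 27 held a liver summit in the window, as did 25 in MEFs and 20 in Hep3B. The shares of all genes were 57.4%, 75.5% and 62.5%. At a TSS, 21, 16 and 13 of the 27 were marked, against 26.7%, 55.4% and 44.4% of all genes. The summit counts that follow, per gene and per branch, are raw and do not measure a difference between lists. Nor do they measure one between genes, since the windows differ in length. The density over all genes differs by list: 2.91 summits per 100 kb for liver, 2.33 for MEFs and 0.775 for Hep3B. A fall in counts from liver to Hep3B is therefore partly a property of the lists.

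Gch1, the entry enzyme of tetrahydrobiopterin synthesis, had 13 summits in liver, 2 in MEFs and 1 in Hep3B. Its regulator Gchfr had 1 in liver and 4 in MEFs. Qdpr and Pcbd1, which recycle tetrahydrobiopterin, had 6 and 2 liver summits, and the co-chaperone gene Dnajc12 had 10. Among 5 transaminases and related enzymes there were 43 liver, 23 MEF and 9 Hep3B summits. The aspartate aminotransferases Got1 and Got2 had 14 and 7 in liver. The decarboxylase Ddc had 12, with a strongest value of 25 (percentile 99.5). Hpdl, a relative of Hpd, had 4 in liver and 4 in MEFs, and the amino acid oxidase gene Il4i1 had 6 and 7.

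Summed over genes, the 13 genes of the kynurenine and serotonin branches had 96 liver, 44 MEF and 22 Hep3B summits, and all 13 were marked in liver. A summit in the windows of neighbouring genes counts for each of them. Downstream of Tdo2, Afmid and Kmo each had 13 liver summits, Acmsd 10, Haao 8, Qprt 4 and Kynu 4. The kynurenine aminotransferase genes Kyat1, Kyat3 and Aadat had 12, 9 and 3. Ido1 and Ido2, neighbouring genes whose enzymes catalyse the same reaction as TDO2, had 6 each, with a shared strongest summit (23.6, percentile 99). Gcdh had 7, and Tph1, the serotonin enzyme, had 1. The 3 carriers had 31, 15 and 7 summits, of which Slc16a10, an aromatic amino acid transporter, held 25 in liver. Slc7a8 and Slc43a1 held 2 and 4. Per 100 kb of window, the highest liver densities of the longer list were 24.1 for Afmid, 21.6 for Got1 and 19.8 for Kyat1. Slc16a10 had 16.8. Hpd and Tdo2 had 25.5 and 22, so genes of the longer list reached similar densities. Gchfr (2.24), Kynu (2.39), Slc7a8 (2.01) and Tph1 (1.47) lay below the 2.91 of all genes.

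By the strongest percentile in each list, with 0 for no summit, the 6 genes had a median profile of 89.9 (liver), 22.2 (MEFs) and 40.1 (Hep3B). The genes of the longer list nearest to this profile by Euclidean distance over the 3 lists were Kynu (distance 40.2), Ido1 (42.5) and Gch1 (46.1). Their liver percentiles were 97.1, 99 and 97.8. In MEFs the values were 0, 11.6 and 66.8, and in Hep3B 72.9, 0 and 31.7, so none was close to the profile in both cultures. Their liver densities were 2.39, 11.3 and 17.2 summits per 100 kb, and that of Kynu was below the 2.91 of all genes.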

How the data were processed

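CUT&RUN libraries of 22 samples fell into 6 groups by their labels, and only the pooled lists of the antibody samples were used. According to their methods and processing notes, the authors trimmed reads with Trim Galore 0.6.6, aligned them with Bowtie2 2.4.2 to mm10 or hg38 in nf-core/cutandrun and called consensus peaks per group with Genrich 0.6.1. They describe the sites as called relative to IgG, while the single command they give names no control and does not account for the higher minimum area of the liver list. How IgG and that minimum entered the lists was not tested. The deposited score is capped by the authors' caller and was not used. The deposited signal sums significance over the length of a peak and is called its area here. The deposited −log10 p and −log10 q belong to the summit. None was normalized between lists, depth per sample is unknown, and 0 columns could not be assigned.

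Summits were placed in GENCODE M21 and GENCODE 44 with Python 3.11.15, pandas 2.3.3 and pysam 0.24.0. The main TSS is the MANE Select (human) or best APPRIS (mouse) start. Counting was tested on simulated data. Motif windows reached 150 bp to each side of the summit, and the PROX1 consensus was written from general knowledge. The genes, the list of 27 pathway genes and the motifs were chosen with earlier results of these data known. All 6 genes were described, every gene of the longer list was named once except for 1 that is counted in its totals but not reported here, and other genes were named where their TSS was nearest to a summit or they overlapped one. The 3 nearest profiles were named by a fixed distance.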

Additional observations from a re-analysis of the deposited data

How the results depend on the processing

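No paired analysis was possible because each list pools its samples and no result comes from a test. Of 72 alternatives, 58 kept a count within a factor of 1.5 or a median within its spread, and 14 moved it. Taking the gene body only changed the 60 liver summits to 24 and the Hep3B count of 20 further pathway genes to 10. Within 5 kb there were 39 liver summits. Within 50 kb there were 78 liver, 18 MEF and 13 Hep3B summits, against 60, 5 and 4. All 6 genes then held a summit in every list, where MEFs and Hep3B had 4 each at 20 kb. Counting any overlap of a peak with the 20 kb window gave 5 genes in MEFs and 4 in Hep3B. The liver-only marking of all 6 genes thus depended on the 20 kb limit. The density over all genes was computed only for the 20 kb windows, and the share of all genes was not computed within 50 kb. With 14361 of the strongest peaks from each list, the liver kept 22 summits at all 6 genes, where 28.3% of all genes were marked. At a TSS, 5 of 6 genes were kept, since Tat lost both of its promoter summits. Gstz1 also lost both summits near its main TSS and was kept by the summit 9694 bp downstream, 196 bp from an alternative start. The share of all genes at a TSS was not computed for this setting. MEFs then had 2 summits at 2 genes, Gstz1 and Fah, where 59.0% of all genes were marked. With the minimum area of 500 that the liver list has, MEFs also had 2 genes. A PROX1 consensus match with 1 mismatch occurred at 0 of 60 liver summits, but only 0.357% of the liver list had one, so this setting cannot show a difference. With 3 mismatches it occurred at 33 of 60 liver, 1 of 5 MEF and 3 of 4 Hep3B summits. The shares of those lists were 46.6%, 42.4% and 41.7%. The share of more than double the list's in liver was thus seen only at 2 mismatches. Liver peaks shared with MEFs numbered 2 when summits had to lie within 100 bp. The liver counts of 6 genes in the window and the counts of 2 genes at a TSS in MEFs and Hep3B were the same under every alternative run. No replicate could be left out. Pooled lists of unknown depth limit every comparison, and a missing peak does not show that PROX1 was absent.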
